A study of Mus musculus with 4 samples.

Results

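The miR-135 family was represented by 3 probes, mmu-miR-135a, its passenger arm mmu-miR-135a* and mmu-miR-135b (below without the prefix for mouse), among the 696 mouse miRNA probes of an Agilent microRNA array. The probes were chosen by name, and all 3 were detected at some stage. The arrays were hybridised with total RNA of mandibular molar tooth germs from untreated embryos of ICR mice, an outbred laboratory strain, at embryonic day 11 (E11), E12, E14 and E16. Each stage had 1 array, so no p-value and no spread between embryos can be given, and how many embryos went into an array is not stated. Over these days the molar passes from a thickened dental epithelium through the bud and cap to the bell stage.

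MicroRNAs are short RNAs that guide a silencing complex to messenger RNAs by base pairing through their seed, bases 2 to 8 of the mature strand. miR-135a and miR-135b are close relatives that share a seed and are transcribed from separate genes. Their known targets include Smad5, an effector of BMP signalling (shown in mouse mesenchymal cells), Runx2, a transcription factor of bone and dental mesenchyme, and, in human colorectal cells, APC, a brake on Wnt signalling. BMP and Wnt signals pass between dental epithelium and mesenchyme as the tooth germ grows, and Runx2 is needed for the mouse molar to leave the bud stage. The arrays measured miRNAs alone, so none of these targets was measured.

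The mature sequences of the miR-135a genes are shown because they bear on what their probes can tell apart. The mature strand of miR-135b was missing from the sequence reference used and is not shown. In RefSeq on GRCm38.p6 the same miR-135a-5p strand is made by both miR-135a genes, at chr9:106154140-106154162 on the plus strand (Mir135a-1) and at chr10:92072141-92072163 on the minus strand (Mir135a-2). Capitals mark the seed.

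miR-135a-5p: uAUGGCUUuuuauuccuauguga

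The opposite arms of these genes differ, and the array's name miR-135a* does not say which of them its probe was made for. Over the 21 positions compared from the 5′ end, 15 were identical and 6 differed, A2G, U10G, G12A, G17A, G20A and C21A, with the base of miR-135a-1-3p first. The seeds, again in capitals, differ by A2G.

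miR-135a-1-3p: uAUAGGGAuuggagccguggcg

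miR-135a-2-3p: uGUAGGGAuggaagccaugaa

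The precursors show how the arms are placed, with the mature strands in capitals. That of Mir135a-1 lies at chr9:106154124-106154213 (plus strand) and that of Mir135a-2 at chr10:92072086-92072185 (minus strand).

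Mir135a-1 hairpin: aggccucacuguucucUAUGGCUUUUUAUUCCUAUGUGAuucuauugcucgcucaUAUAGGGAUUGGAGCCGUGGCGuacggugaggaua

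Mir135a-2 hairpin: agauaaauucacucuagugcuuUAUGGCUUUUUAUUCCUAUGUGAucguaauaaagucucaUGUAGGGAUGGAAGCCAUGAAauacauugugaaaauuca

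In the same annotation Mir135a-1 lies within the span of Glyctk, which encodes glycerate kinase, and of the long non-coding RNA D030055H07Rik. Mir135a-2 lies 9.56 kb from the long non-coding RNA Rmst. Mir135b, at chr1:132198088-132198184 on the plus strand, lies within the spans of Lemd1 and of the long non-coding RNA Gm29695. Whether these positions are exonic or intronic was not examined here. One other miRNA gene lay within 50 kb of a miR-135 gene, Mirlet7g at 24.6 kb from Mir135a-1.

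The arrays detected 209, 221, 249 and 250 of the 696 miRNAs at E11, E12, E14 and E16, and 197 on all 4. An undetected probe carries no measured value and is treated as a bound, at the lowest detected signal of its array, which was 5.48, 7.43, 5.69 and 6.51 at the 4 stages. Signals are the deposited intensities, and an error written ± after a signal is the measurement error deposited with it. After a difference, ± is the error calculated by combining the relative errors of the signals in it. Differences between stages are later minus earlier, on the log2 scale after dividing each array by its 75th percentile over the 197 miRNAs detected throughout. That percentile was 1.44 higher (log2) at E16 than at E11, so the differences of the family are given beside the median difference of all miRNAs and beside the value without scaling.

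miR-135b was the 1 member detected at every stage. Its deposited signal was 11.6 ± 3.6 at E11, 65.2 ± 7.9 at E12, 51.6 ± 6.2 at E14 and 127.4 ± 10.8 at E16. The low value is thus the first one, the high value the last, and the 2 in between lie close together. At E16 the signal was 11.8 times its error and 19.6 times the lowest detected signal of the array, whereas at E11 it was 3.22 times its error and 2.12 times that lowest signal. Among the 197 miRNAs detected throughout, counted from the dimmest, miR-135b was number 8 at E11, 67 at E12, 54 at E14 and 88 at E16. These positions do not depend on a constant scaling of an array, and they describe signals, since probes differ in affinity.

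miR-135a, the sister miRNA, was detected at E12 alone, with a signal of 22.7 ± 5.1, or 4.49 times its error. No other miRNA of the 696 was detected at E12 alone. In all, 30 miRNAs were detected at a single stage, of which 16 were seen at E14, 13 at E16 and 0 at E11. miR-135a* gave 7.52 ± 1.87 at E11, 8.35 ± 2.43 at E12 and 7.86 ± 1.93 at E14 and was not detected at E16. It was the 1 miRNA with that pattern of detection. Its 3 signals lay within their errors of each other and were 1.12 to 1.38 times the lowest detected signal of their arrays, so this arm was read at the lower limit of the arrays wherever it was read at all.

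**Figure D1:**
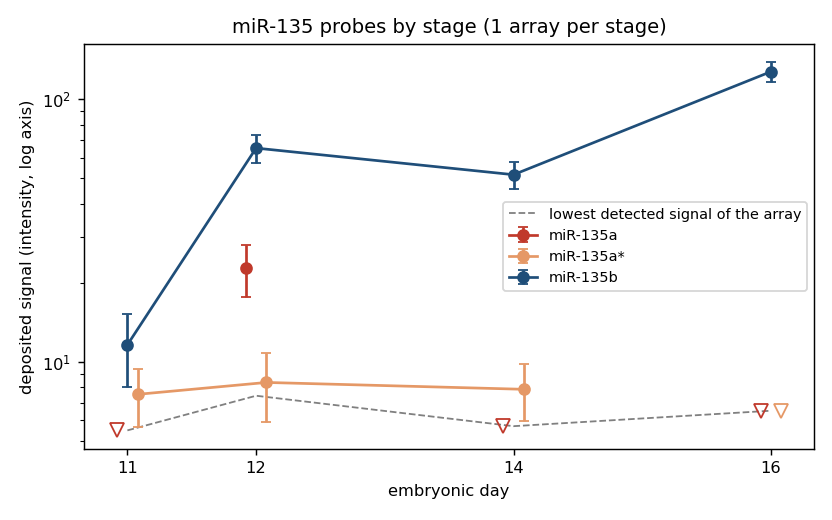
Deposited signal (intensity, log axis) of the 3 miR-135 probes by embryonic day, 1 array per stage. Points with bars are detected signals with their stated errors, open triangles are stages without detection, drawn at the lowest detected signal of the array (grey dashes). miR-135b stands at 127.4 at E16, against 11.6 at E11, miR-135a has a single point at E12, and miR-135a* stays near the dashed line.

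The first step, E12 versus E11, gave the steepest difference of miR-135b between neighbouring stages. It was 3.53-fold higher at E12 than at E11 (log2 1.82 ± 0.48), beside a median of -0.20 over the 201 miRNAs detected at both stages. This was the 5th largest difference of the 201, and 9.45% of them were at least 2-fold higher. Without scaling the difference was 5.61-fold (log2 2.49). The stated error was 12.1% of the signal at E12, against 31.0% at E11, which gives most of the error of the difference.

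The second step, E14 versus E12, ran the other way. miR-135b was at -0.75 ± 0.25 (E14 minus E12), 1.68-fold lower at E14 and so short of 2-fold, beside a median of -0.40 over 212 miRNAs, of which 15.1% were at least 2-fold lower. Without scaling the difference was -0.34, or 1.36 times its error. Relative to the median of all miRNAs it was -0.35 at this step, and 157 of the 212 had a difference at or above that of miR-135b.

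From E14 to E16 miR-135b was 1.93-fold higher at E16 (log2 0.95 ± 0.21), just under 2-fold, and 2.47-fold higher without scaling (log2 1.30). The median over 231 miRNAs was -0.06, and 7.36% were at least 2-fold higher. Its difference was number 21 from the top of the 231.

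Over the whole course miR-135b was 4.06-fold higher at E16 than at E11 (log2 2.02 ± 0.46), or 11.0-fold without scaling. It stood 2.77 above the median of the 205 miRNAs detected at both stages, as number 10 from the top, where 13.7% were at least 2-fold higher. Against E11, E14 was 2.105-fold higher (log2 1.07 ± 0.48), beside a median of -0.43 and 2.15 without scaling, number 30 of 205, where 16.6% were at least 2-fold higher. With the 75th percentile taken over all probes, E14 minus E11 was 0.88, short of 2-fold. Against E12, E16 was at 0.20 ± 0.21, within its error of 0, beside a median of -0.34, number 63 of 215, where 6.05% were at least 2-fold higher. This last difference moved from within its error to beyond it with the scaling. It was 0.35 with the 75th percentile taken over all probes, and 0.97 without scaling, which is 4.54 times its error.

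**Figure D2:**
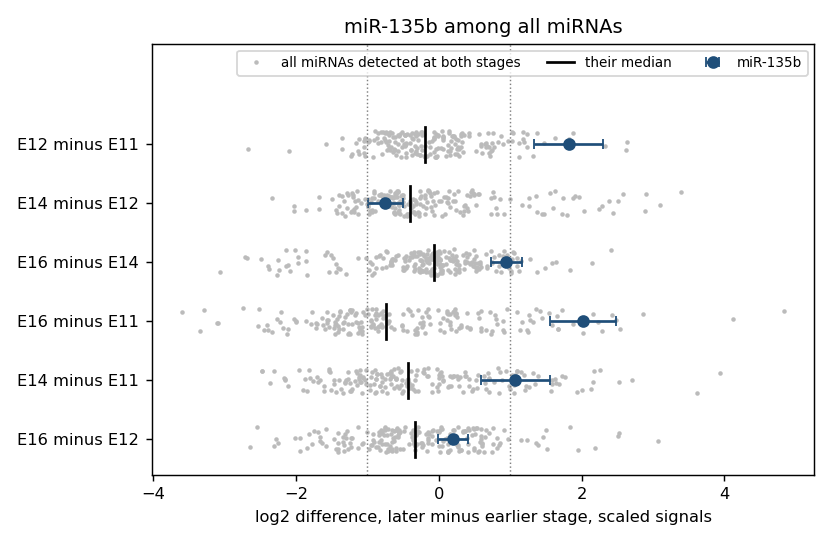
Log2 difference of miR-135b (blue, with its combined measurement error) for each pair of stages, later minus earlier, among all miRNAs detected at both stages (grey points) and their median (black bar). Dotted lines mark 2-fold. miR-135b lies among the largest differences for E12 minus E11 (1.82) and E16 minus E11 (2.02), and below the median for E14 minus E12 (-0.75).

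Set in order, the levels of miR-135b were E11, E14, E12 and E16, from low to high, under all 6 scalings tried, 2 of which gave equal values. E16 and E12 were not separated beyond their error under the main scaling, and E12 and E14 by 3.03 times it. E14 and E11 were separated by 2.23 times their error. Of the 197 miRNAs detected throughout, 13 (6.599%) had this same order of stages under the main scaling, and 41 (20.8%) without scaling. The wider pattern of higher at E12, lower at E14 and higher at E16 was held by 45 of 197 (22.8%), and by 72 (36.5%) without scaling.

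**Figure D3:**
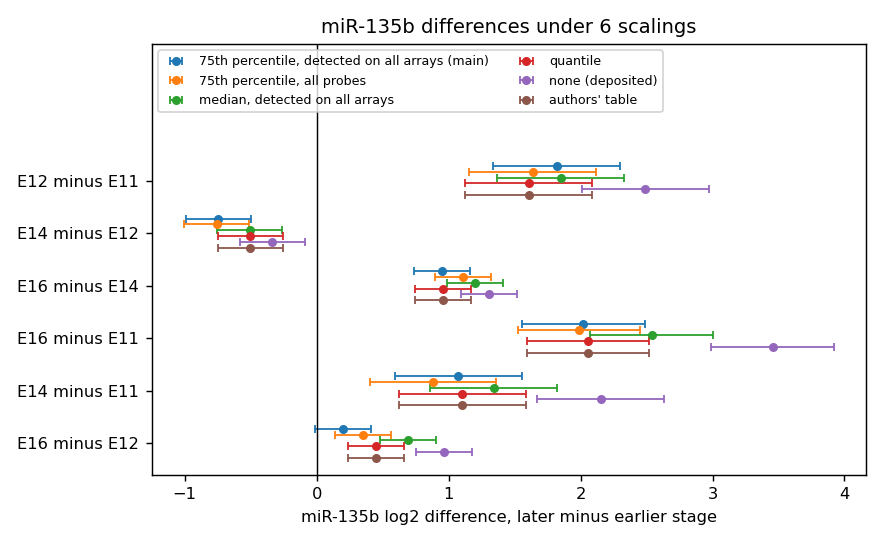
Log2 difference of miR-135b for each pair of stages, later minus earlier, under 6 scalings between arrays, with the combined measurement error. Every pair keeps its direction. E16 minus E11 spans 1.99 to 3.46, and E16 minus E12 spans 0.20 to 0.97.

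For miR-135a the comparisons are bounds. E12 was at least 2.61-fold higher than E11 after scaling (4.15-fold without). Of the 221 miRNAs detected at E12, 9.05% were not detected at E11. At E14 miR-135a was at least 5.31-fold lower than at E12 (3.995-fold without scaling), where 4.07% of those detected at E12 were lost. At E16 it was at least 5.93-fold lower than at E12 (3.49-fold without scaling), where 2.71% were lost.

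These bounds are nominal, because a probe with a large error can go undetected above the dimmest detected signal of the array. Taking 3 times the error of miR-135a at E12 as its own limit, a signal of 15.2, the bounds without scaling shrink to 1.496-fold against each other stage. After scaling they become 2.54-fold for E16 and 1.99-fold for E14, and no bound above 1 is left for E11.

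miR-135a* was near its limit throughout. E12 minus E11 was -0.52 ± 0.55 and E14 minus E12 -0.50 ± 0.55 after scaling, both within their errors of 0, beside medians of -0.20 and -0.40 over all miRNAs. E14 minus E11 was -1.02 ± 0.50 beside a median of -0.43, past 2-fold lower, in a comparison where 26.8% of 205 miRNAs were at least 2-fold lower. Without scaling these 3 differences were 0.15, -0.09 and 0.06, so the direction against E11 rests on the scaling. At E16 the bounds after scaling were at least 1.54-fold lower than at E14, a step at which 7.23% of the miRNAs detected at E14 were lost, 2.18-fold lower than at E12 and 3.12-fold lower than at E11 (1.91% of those detected at E11 lost). Without scaling they were 1.21-, 1.28- and 1.15-fold. These bounds are nominal too. With 3 times the largest error of miR-135a* as its limit, a signal of 7.29, they are 1.38-, 1.95- and 2.79-fold after scaling. Without scaling that limit leaves 1.08-, 1.15- and 1.03-fold.

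The sister miRNAs did not move together between E12 and E16. A constant scaling of an array cancels when the change of miR-135a is set against that of miR-135b between the same arrays. From E12 to E16 the change of miR-135a lay at least 2.77 ± 0.39 (log2) below that of miR-135b, whose signal was 1.96-fold higher at E16 without scaling. From E12 to E14 it lay at least 1.66 ± 0.41 below. With the limit of 15.2 in place of the dimmest detected signal these values are 1.55 for E16 and 0.24 for E14, the second of them within its error. From E11 to E12 no direction could be given, since the change of miR-135a was at least 2.05 and that of miR-135b was 2.49. Probes for near-identical miRNAs can bind each other's target, and this was not tested.

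Markers of cell types were read beside the family, and in these whole germs fewer cells of a type and less RNA per cell cannot be told apart. Of 7 epithelial miRNAs, 6 were detected at E11 and 7 at the later stages, and their summed signal in units of the array's 75th percentile was 7.18, 8.51, 10.2 and 13.9 at E11, E12, E14 and E16. Of 7 mesenchymal miRNAs, 6 were detected at every stage and miR-145 at none, and their sum was 43.7, 42.8, 21.2 and 19.0. The epithelial sum was higher at each later stage, also without scaling (1795, 3382, 5363 and 9364), though its member miR-203 was at -0.58 for E14 minus E12. Most of each sum came from miR-205 alone, with 1241, 2190, 3517 and 5317. The deposited mesenchymal sums were 10921, 17005, 11211 and 12870. Against E12 the mesenchymal sum was thus lower at E14 and E16 with and without scaling. Against E11 that sum was lower at E14 and E16 after scaling only. It rests on the bright miR-199a-3p, miR-199a-5p, miR-199b* and miR-214, while miR-143 and miR-140 were at 1.67 and 0.73 for E16 minus E11. The members also split for E16 minus E12 without scaling. There miR-199a-3p was at -0.65, miR-214 at -0.90 and miR-199a-5p at -0.16 ± 0.16. In the same comparison miR-199b*, miR-140 and miR-143 were higher at E16, at 0.19, 1.18 and 1.25. The part of these values in the level of miR-135b was not tested.

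Of 6 neural miRNAs, miR-9, miR-9* and miR-124 were detected on no array. The others summed to 0.0586, 0.249, 0.0673 and 0.152 of the 75th percentile at the 4 stages, with miR-137 seen at E12 and E16, miR-128 at every stage and miR-219 at E16. The deposited sum was 14.6, 98.8, 35.6 and 102.8, so that E12 was above E16 after scaling only. miR-137 and miR-128 gave all of this sum at E12 and most of it at E16. Its part in the detection of miR-135a was not tested. The 4 muscle miRNAs were detected on no array. Erythroid miR-451 was detected on all arrays and miR-144 at E16, and their sum was 1.62, 1.06, 1.26 and 1.82. The cartilage miRNAs miR-140 and miR-140* were detected throughout, with sums of 0.349, 0.355, 0.240 and 0.395.

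The 8 miRNAs whose course was most like that of miR-135b were found among the 196 others detected on all arrays. Likeness was the root mean square, over the 4 stages, of the difference between the 2 log2 courses after centring, in which a constant scaling of an array cancels. miR-152, of the miR-148 family, was nearest at 0.22, and its signal was 12.8 ± 3.6 at E11, 75.1 ± 8.3 at E12, 81.5 ± 7.7 at E14 and 187.1 ± 14.6 at E16. It shares the steep first step. For E14 minus E12 it was at -0.29 after scaling, beside -0.75 for miR-135b. Its deposited signal had no dip at E14, while that of miR-135b differed by -0.34, or 1.36 times its error.

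Next came let-7f (0.27), miR-143 (0.27), a miRNA of mesenchymal and smooth muscle cells, let-7g (0.29), miR-98 (0.31), let-7i (0.33), let-7d (0.36) and miR-365 (0.36). Of the 8, 5 belong to the let-7 family with miR-98, which is known to accumulate as embryonic cells differentiate. The share of that family among all 196 was not counted, so these 5 have no background beside them. The median distance over all 196 was 1.05. The error of miR-135b at E11 was 0.45 on the log2 scale. That is an error of 1 stage, and the distances run over 4 centred stages, so the 2 cannot be compared directly. How far such errors could change the order of the 8 was not tested. Ranked by correlation over the same 4 stages instead, 5 of the 8 were named again, and let-7i, let-7d and miR-365 were not.

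**Figure D4:**
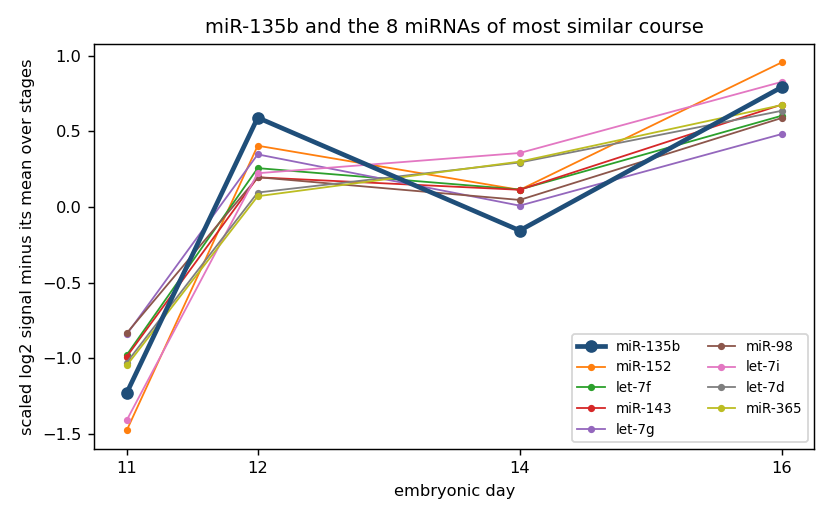
Scaled log2 signal minus its mean over the 4 stages, by embryonic day, for miR-135b (thick blue line) and the 8 miRNAs of most similar course. All 9 are lowest at E11 and highest at E16, and miR-135b has the lowest value of the 9 at E14, -0.16.

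let-7g is also the gene neighbour of Mir135a-1. Its signal was 164.5 ± 12.8, 596.6 ± 43.6, 626.7 ± 45.7 and 1114 ± 81.0 at E11, E12, E14 and E16, detected throughout, while miR-135a was read at E12 alone. After scaling let-7g differed by 1.19 ± 0.15 for E12 minus E11, by -0.34 ± 0.15 for E14 minus E12 (0.07 without scaling) and by 0.47 ± 0.15 for E16 minus E14, beside medians of -0.20, -0.40 and -0.06 over all miRNAs. miR-135b, on another chromosome, had the same signs at these 3 steps after scaling. Those signs were held by 45 of the 197 miRNAs detected throughout (22.8%), and let-7g was already named for its likeness to miR-135b. Without scaling miR-135b was at -0.34 for E14 minus E12, opposite in sign to let-7g.

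miR-135a is 1 of 11 miRNAs that were reported to target Runx2 in mouse osteoblast and chondrocyte cells, and the others give its setting. miR-34c, miR-133a, miR-204 and miR-217 were detected on no array. miR-23a, miR-30c, miR-205 and miR-218 were detected on all. For miR-137 the stages with detection were E12 and E16, and for miR-338-3p E14 and E16.

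Of the 4 that could be compared between E16 and E11, 1 was at least 2-fold higher (13.7% of all miRNAs) and 0 were at least 2-fold lower (37.6% of all), with a median of 0.36 beside -0.74 over all miRNAs. miR-23a was at 1.36 ± 0.16, the epithelial miR-205 at 0.66 ± 0.15, miR-218 at 0.06 ± 0.17 and miR-30c at -0.01 ± 0.17. The last 2 lie within their errors of 0. Without scaling all 4 were at least 2-fold higher, but so were 92 of all 205 miRNAs compared. The median was then 1.79 beside 0.69.

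For E14 minus E12, 1 of the 4 comparable members was at least 2-fold lower (15.1% of all miRNAs), and the median of the list was -0.02 beside -0.40 over all. miR-135a and miR-137 were detected at E12 and not at E14 (4.07% of all detected at E12). miR-218, an intronic miRNA of the Slit genes, gave 87.8 ± 8.0 at E11, 227.2 ± 17.6 at E12, 107.3 ± 9.2 at E14 and 247.0 ± 18.7 at E16. It was at -1.49 ± 0.17 for E14 minus E12 (-1.08 without scaling). The neural miR-137 had 47.5 ± 6.8 at E16 and 59.2 ± 7.6 at E12 and was at least 13.8-fold lower at E14 than at E12 (10.4-fold without scaling). That bound is nominal too, and with 3 times its own error at E12 as the limit it is 3.43-fold, or 2.58-fold without scaling. Over the same step miR-23a was at 0.34 ± 0.16 and miR-205 at 0.27 ± 0.15. miR-30c was at -0.32 ± 0.17 after scaling and at 0.09 without it.

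**Figure D5:**
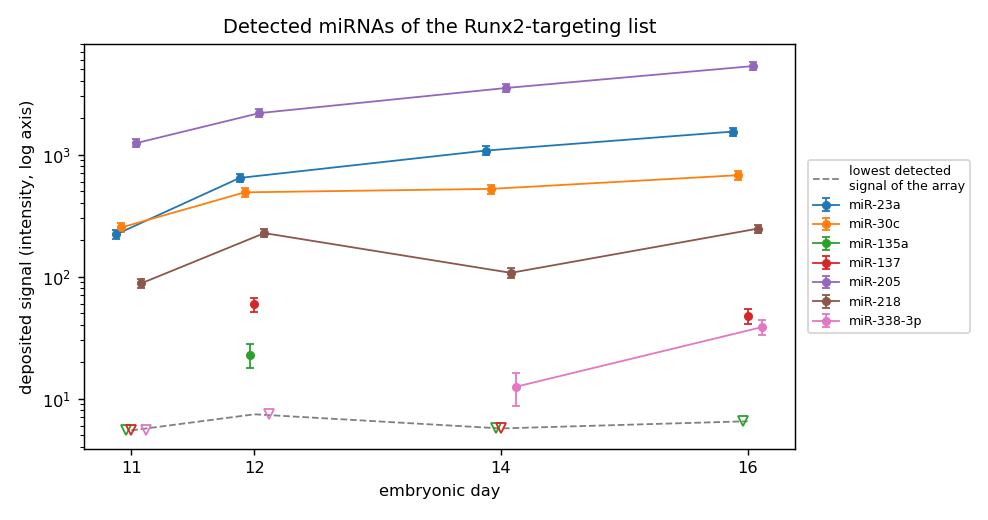
Deposited signal (intensity, log axis) by embryonic day of the 7 detected miRNAs of the Runx2-targeting list, with stated errors. Open triangles are stages without detection, drawn at the lowest detected signal of the array (grey dashes). miR-205 and miR-23a are higher at each later stage, miR-218 is lower at E14 (107.3) than at E12 (227.2), and miR-135a and miR-137 are undetected at E14.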

How the data were processed

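RNA of each stage (100 ng) was labelled with Cy3 and hybridised to a 1-colour Agilent miRNA array, per the labels' protocols. The deposited intensity of each probe is, per the file headers, the total gene signal, with its error and a detection flag. Undetected probes hold 0.1 with an error of 1. No label or header names the image software, background method or array design. Deposited signals are not scaled between arrays. The authors' value table holds linear intensity with no centring found. Quantile-normalizing the deposited signals, with controls included, gave its detected values (largest difference 1.15e-05%). The median detected value of its columns was 123, 106, 83.7 and 83.0 at E11, E12, E14 and E16. It served as an alternative.

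The 22 control features were left out. Each log2 signal was taken relative to the array's 75th percentile over the 197 miRNAs detected on all arrays. Signal errors were combined as relative errors. The size rule was 2-fold, with no test. Python 3.11.15 and pandas 2.3.3 were used, and the calculation was tested on simulated data. There every probe was detected, and the median of the probes simulated as unchanged was subtracted before scoring. That test thus does not cover the detection bounds or a shift brought by the scaling itself. The named miRNAs were the 3 members, the 8 of most similar course, those sharing the detection pattern of miR-135a or miR-135a*, detected members of the Runx2 list, and miRNA genes within 50 kb. miR-135a matched a mature RefSeq entry and miR-135a* matched 2 possible ones. The members and lists were chosen with earlier results of these data known. miR-135a* was planned as detected at E11 alone, so its E12 and E14 values are differences and not bounds. Having 1 array per stage limits the precision.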

Additional observations from a re-analysis of the deposited data

How the results depend on the processing

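miR-135b kept its direction for all 6 pairs of stages under the 6 scalings, of which quantile normalization and the authors' table gave equal values. Without scaling its differences were 2.49 (E12 minus E11), -0.34 (E14 minus E12), 1.30 (E16 minus E14), 3.46 (E16 minus E11), 2.15 (E14 minus E11) and 0.97 (E16 minus E12). With median scaling E16 minus E14 was 1.20, E16 minus E11 2.54 and E16 minus E12 0.69. E16 minus E12 was 0.45 with quantile normalization and in the authors' table. The log2 bounds of miR-135a, E12 over E11, E14 and E16, were 2.05, 1.998 and 1.80 without scaling and 0.76, 2.97 and 3.91 with quantile normalization. The bound against E16 was 2.08 with median scaling. With 3 times the error of miR-135a as its limit, an alternative chosen after seeing the data, they were -0.088, 0.99 and 1.35, so that no bound is left against E11. The change of miR-135a minus that of miR-135b was then at most -0.24 for E14 and -1.55 for E16, against -1.66 and -2.77. For miR-135a*, E11 minus E12 turned to -0.15 and E11 minus E14 to -0.064 without scaling, and E11 minus E14 was 2.17 with quantile normalization. Its bound of E11 over E16 was 1.13 with median scaling, 0.21 without and 3.44 with quantile normalization. The Runx2 list's median for E16 minus E11 was 1.79 without scaling. Its count at least 2-fold higher was 2 with median scaling, quantile normalization and the authors' table, and 4 without scaling. Over all miRNAs, E16 versus E11 gave 28 higher and 77 lower, against 44 and 35 with median scaling and 92 and 9 without. A bound from 3 times a probe's error at the stage without detection was not run, since that error is a constant placeholder of 1 there. The signal over background limits miR-135a* at every stage and miR-135b at E11. No paired analysis was possible because each stage has 1 array.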

Other observations

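5 other miRNAs were detected at E12 and E16 and at neither E11 nor E14, and they are named here after their values were seen. The imprinted miR-136 had 80.5 ± 8.3 at E16 and 20.0 ± 4.9 at E12. miR-137 had 47.5 ± 6.8 at E16 and 59.2 ± 7.6 at E12. miR-362-3p had 38.6 ± 6.5 at E16 and 14.9 ± 4.8 at E12, miR-340-3p 19.0 ± 4.1 and 9.31 ± 2.87, and miR-467e 13.4 ± 4.4 and 17.3 ± 4.8. With miR-135a, they make 6 miRNAs detected at E12 that were detected at neither E11 nor E14.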
